A study of Mus musculus with 11 samples.

Results

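The 10 genes described here are transcription factors and one associated silencing factor that set and keep the photoreceptor fate in the retina: Otx2, Neurod1, Prdm1, Crx, Nrl, Nr2e3, Esrrb, Samd7, Thrb and Rxrg. The rule lists them by name, but they were chosen with earlier results of these data known. All 10 were found among the 37991 Ensembl genes of the deposited count table. They also passed the filter on low counts that left 17099 genes to test. The study took the retina of the right eye from 11 mice on postnatal day 24, with 1 animal per RNA library. These groups had 3 animals each: rd10 mice given the LSD1 inhibitor GSK2879552 (rd10 GSK), rd10 mice given saline (rd10 saline) and wild-type mice given the inhibitor (WT GSK). The fourth, wild-type mice given saline (WT saline), had 2. The inhibitor was injected into the abdominal cavity each day from day 9 to day 24 at 4.2 mg/kg, and saline on the same days. Wild-type mice were C57Bl/6J, and rd10 mice, labelled B6.CXB1-Pde6brd10/Jrd10, carry a mutant allele of Pde6b, the rod phosphodiesterase subunit, in every cell, and their rods degenerate in the weeks after birth. LSD1, encoded by Kdm1a, removes methyl groups from histone H3 and acts with corepressor complexes.

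In the mouse retina Otx2 commits dividing progenitors to a photoreceptor or bipolar fate and switches on Crx, the homeodomain activator used by rods and cones alike. Nrl, a leucine zipper protein of the Maf family, then directs the precursor to become a rod, and it does so in part through Nr2e3, a nuclear receptor that silences cone genes in rods. Where Nrl is absent the precursor becomes a cone, and the thyroid hormone receptor encoded by Thrb and the retinoid X receptor encoded by Rxrg then shape the pattern of cone opsins.

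The libraries held between 19657030 and 28053367 counts. Values below are CPM, read counts set relative to library size after scaling by edgeR's TMM factors, given for replicates 1, 2 and 3 in that order, and a gene is called where the p-value of edgeR's quasi-likelihood test, adjusted by Benjamini-Hochberg over all 17099 genes, is under 0.05. Because whole retinas were sequenced, fewer cells of a type and less RNA per cell cannot be told apart. Pax6, which marks amacrine cells, was at 367 to 384 CPM in rd10 GSK, 480 to 491 CPM in rd10 saline, 381 to 393 CPM in WT GSK and 384 to 391 CPM in WT saline, so retinal RNA was present in every library. Summed lens transcripts reached 7313 CPM in rd10 GSK replicate 2 and 742 CPM in WT saline replicate 2, and 17.7 CPM or less in the remaining 9 libraries. Xist, which females express, was at 0.338 CPM or less in replicates 1 and 3 of rd10 GSK, replicate 2 of rd10 saline and replicate 2 of WT GSK. Every other library, both of WT saline included, held at least 780 CPM of Xist, and with a term for it in the fit 0 members were called in rd10 GSK against WT saline. Pde6b, which the rd10 mutation alters, stood at 991, 1381 and 1757 CPM in rd10 GSK, 332, 333 and 422 CPM in rd10 saline, 2282, 2214 and 2232 CPM in WT GSK and 2231 and 2301 CPM in WT saline. Kdm1a, whose product the inhibitor blocks, was at 93.6 to 104 CPM in rd10 GSK, 83.2 to 88.9 CPM in rd10 saline, 96.6 to 105 CPM in WT GSK and 95.1 to 96.0 CPM in WT saline.

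The start-site windows of 5 members are shown because their transcripts gave the largest changes or orders that differed from the rest, and each has 1 window in the table; Esrrb has 2 and is not shown. They are RefSeq windows on build GRCm38.p6 running from 250 bases before to 50 bases after the annotated start, printed 5′ to 3′ on the gene's own strand. Nrl lies at chr14:55524203-55524502 (minus strand), Nr2e3 at chr9:59950030-59950329 (minus), Crx at chr7:15879906-15880205 (minus), Samd7 at chr3:30746043-30746342 (plus) and Neurod1 at chr2:79456587-79456886 (minus). Capitals mark any of 4 motifs searched on both strands: TAATCC, the kind of site that Crx and Otx2 bind, TGCTGA, the core letters of Maf family sites, AAGGTCA, the kind of site bound by estrogen-related receptors such as Esrrb, and CAGATG, a kind of E-box bound by basic helix-loop-helix factors.
Nrl: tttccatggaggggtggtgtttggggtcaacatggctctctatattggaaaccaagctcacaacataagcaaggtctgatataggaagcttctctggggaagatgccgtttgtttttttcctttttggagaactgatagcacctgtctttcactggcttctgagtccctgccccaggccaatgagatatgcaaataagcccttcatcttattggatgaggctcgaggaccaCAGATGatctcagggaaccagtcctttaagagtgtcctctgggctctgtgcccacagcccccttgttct
Nr2e3: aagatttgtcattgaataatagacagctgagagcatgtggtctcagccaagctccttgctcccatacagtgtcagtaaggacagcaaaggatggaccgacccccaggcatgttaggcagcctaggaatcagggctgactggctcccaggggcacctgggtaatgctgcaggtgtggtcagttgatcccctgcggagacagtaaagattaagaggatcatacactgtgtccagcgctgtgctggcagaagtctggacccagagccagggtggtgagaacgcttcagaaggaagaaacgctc
Crx: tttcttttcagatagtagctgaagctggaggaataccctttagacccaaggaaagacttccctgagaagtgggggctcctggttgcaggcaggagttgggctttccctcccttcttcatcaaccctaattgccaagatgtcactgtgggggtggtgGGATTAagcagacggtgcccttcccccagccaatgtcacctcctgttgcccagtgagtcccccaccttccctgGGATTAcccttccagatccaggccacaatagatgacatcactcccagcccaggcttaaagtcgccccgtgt
Samd7: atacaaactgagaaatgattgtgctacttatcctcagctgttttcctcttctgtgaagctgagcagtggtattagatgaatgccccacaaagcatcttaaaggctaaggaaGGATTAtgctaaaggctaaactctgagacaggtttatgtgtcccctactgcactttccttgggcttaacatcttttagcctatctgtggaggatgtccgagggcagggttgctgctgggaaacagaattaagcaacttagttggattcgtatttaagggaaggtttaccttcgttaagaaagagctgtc
Neurod1: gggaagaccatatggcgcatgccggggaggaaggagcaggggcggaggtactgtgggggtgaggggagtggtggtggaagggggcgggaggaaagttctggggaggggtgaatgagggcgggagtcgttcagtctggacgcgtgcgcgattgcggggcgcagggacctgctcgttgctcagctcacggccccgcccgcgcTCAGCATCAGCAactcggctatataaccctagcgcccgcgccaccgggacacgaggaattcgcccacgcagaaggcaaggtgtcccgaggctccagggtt

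The Crx window held 2 copies of GGATTA, the reverse complement of TAATCC, beginning 94 and 21 bases before the start, and the Samd7 window held 1 copy beginning 139 bases before it. TAATCC was present in 7.06% of 32851 such windows genome-wide. The Neurod1 window held 2 adjoining copies of TCAGCA, the reverse complement of TGCTGA, which 19.5% of windows contain, and the Nrl window held 1 CAGATG, which 17.2% contain. The Nr2e3 window held none of the 4, and AAGGTCA, found in 4.72% of all windows, was in none of the 5 shown. No base lay in more than 1 match. These matches describe letters only, and no binding was measured.

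Photoreceptor fate genes were lower in rd10 saline than in WT saline retinas in 8 of 10 cases and none was higher, where 19% of all tested genes were called lower and 40.5% were called in either direction. Given the inhibitor, rd10 retinas held more of 9 of the 10 than rd10 saline retinas did, against 17.6% of all tested genes called higher, 15.2% called lower and 32.9% called in either direction. These comparisons share the rd10 saline animals. The members' median log2 change was -0.82 for rd10 saline against WT saline (0.02 over all tested genes) and 0.99 for rd10 GSK against rd10 saline (0.01 over all tested genes). Rxrg was called in neither, and Samd7 missed the threshold in rd10 saline against WT saline. In wild-type retinas 0 of 10 were called with the inhibitor (edgeR, against 0.532% of all tested genes, 0.444% higher and 0.0877% lower), 0 had an unadjusted p under 0.05, and DESeq2 called 0.

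**Figure D1:**
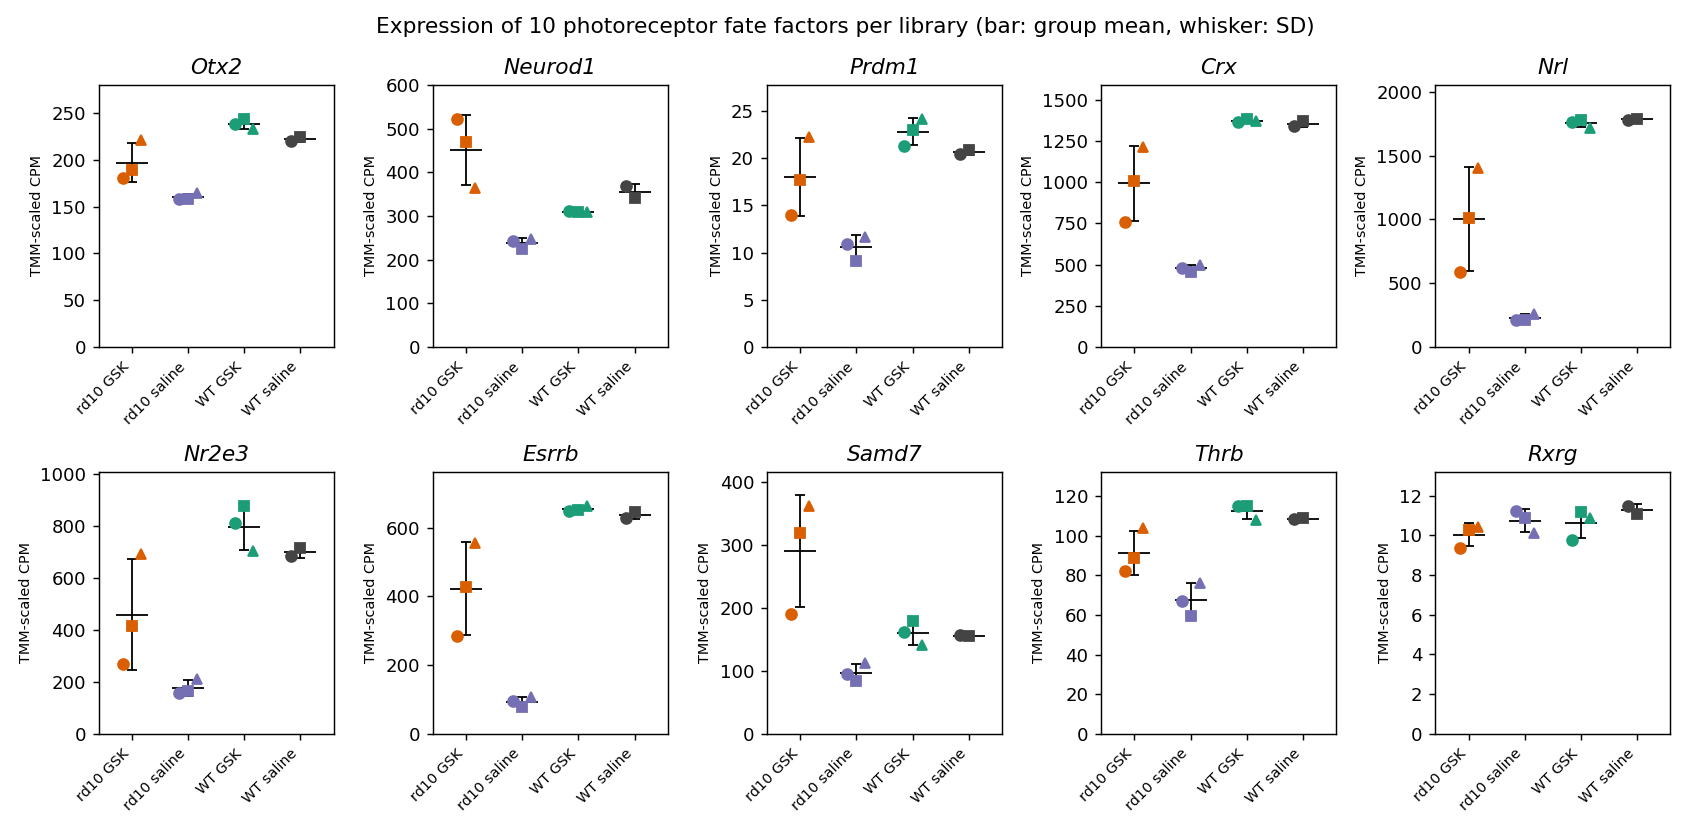
Levels of the 10 members in each of the 11 libraries, in TMM-scaled CPM on a linear axis from 0, with rd10 GSK, rd10 saline, WT GSK and WT saline from left to right. Circles, squares and triangles are replicates 1, 2 and 3, horizontal bars are group means and whiskers SD. The 3 rd10 saline libraries lie below every WT saline library for all members but Rxrg. Such separation of 3 from 2 libraries is weak by itself. Otx2, Prdm1 and Esrrb lay above, and Neurod1 and Nrl below, every WT saline library in WT GSK, where no member was called. The share of all genes that separate was not counted.

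Among the genes that act first, Otx2 changed least. Otx2 stood at 181, 189 and 221 CPM in rd10 GSK, 159, 158 and 165 CPM in rd10 saline, 239, 244 and 233 CPM in WT GSK and 220 and 225 CPM in WT saline. All rd10 saline libraries were the lowest, and rd10 GSK replicate 3 lay within the WT saline values. Otx2 was lower in rd10 saline than in WT saline by a log2 change of -0.47 ± 0.07 (SE, edgeR adjusted p = 0.000472) and higher in rd10 GSK retinas than in rd10 saline retinas by 0.30 ± 0.07 (adjusted p = 0.00587). The last call was lost where only the compared groups were fitted (adjusted p = 0.0510). Bipolar cells also express Otx2: of 16 bipolar genes, 10 were higher and 0 lower in rd10 saline than in WT saline, where 21.5% of all tested genes were called higher. In rd10 GSK against rd10 saline 11 were lower and 0 higher, where 15.2% of all tested genes were called lower. The part of this in the Otx2 values was not tested.

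Neurod1, a basic helix-loop-helix factor needed for photoreceptor survival and for Thrb in cone precursors, was the member that passed furthest above rd10 saline among the early factors. It stood at 522, 470 and 364 CPM in rd10 GSK, 242, 225 and 247 CPM in rd10 saline, 311, 310 and 310 CPM in WT GSK and 368 and 341 CPM in WT saline. In rd10 GSK it was highest in replicate 1 and lowest in replicate 3. Every other member, the uncalled Rxrg included, was lowest in replicate 1 and highest in replicate 3. Neurod1 was lower in rd10 saline than in WT saline (-0.58 ± 0.12, edgeR adjusted p = 0.00225) and higher in rd10 GSK retinas than in rd10 saline retinas (0.93 ± 0.11, adjusted p = 9.34e-05). It was also higher in rd10 GSK than in WT GSK (0.54 ± 0.10, adjusted p = 0.00445), where the groups did not overlap. Neurod1 and Cerkl share 201 exon bases on the same strand, 7.37% of the bases in Neurod1 exons in GENCODE M21.

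Prdm1, also called Blimp1, represses bipolar genes in photoreceptor precursors, and its level was low in all groups. It stood at 14.0, 17.6 and 22.3 CPM in rd10 GSK, 10.9, 9.14 and 11.7 CPM in rd10 saline, 21.3, 22.9 and 24.1 CPM in WT GSK and 20.4 and 20.9 CPM in WT saline. The rd10 GSK libraries spread from above the rd10 saline values to above the WT saline values. Prdm1 was lower in rd10 saline than in WT saline (-0.96 ± 0.16, edgeR adjusted p = 0.000786) and higher in rd10 GSK retinas than in rd10 saline retinas (0.76 ± 0.15, adjusted p = 0.00268). Plasma cells and some T cells use Prdm1 too. Jchain, the antibody joining chain of plasma cells, was lower in rd10 saline than in WT saline (-0.36 ± 0.12, edgeR adjusted p = 0.0342) and higher in rd10 GSK against rd10 saline (0.62 ± 0.11, adjusted p = 0.00135). Jchain stood at 14.4, 15.5 and 16.6 CPM in rd10 GSK, 8.99, 10.2 and 11.1 CPM in rd10 saline, 14.0, 16.1 and 12.9 CPM in WT GSK and 12.4 and 13.5 CPM in WT saline, which was most of the summed level of the lymphoid markers. Of 8 such markers, Cd3e, Ms4a1 and Nkg7 failed the filter on low counts. Among the 5 tested, 2 were higher and 1 lower in rd10 saline than in WT saline (21.5% and 19% of all tested genes). In rd10 GSK against rd10 saline 1 was higher and 1 lower (17.6% and 15.2%). Other markers went opposite to Jchain: raw counts of Gzmb were 11 to 12 in rd10 saline and 0 to 1 in WT saline. Those of Cd4 were 8 to 18 and 0 to 2. The summed lymphoid level was 17.1 to 19.1 CPM in rd10 GSK, 12.1 to 13.6 CPM in rd10 saline, 15.4 to 19.2 CPM in WT GSK and 13.9 to 14.6 CPM in WT saline. The part of lymphoid RNA in the Prdm1 values was not tested.

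Crx, whose window above holds 2 GGATTA motifs, activates rod and cone genes in differentiated photoreceptors. Crx stood at 759, 1005 and 1214 CPM in rd10 GSK, 478, 456 and 496 CPM in rd10 saline, 1364, 1383 and 1370 CPM in WT GSK and 1340 and 1369 CPM in WT saline. All 3 rd10 GSK libraries lay between the rd10 saline and the WT libraries, with no overlap on either side. Crx was lower in rd10 saline than in WT saline (-1.51 ± 0.14, edgeR adjusted p = 2.18e-05) and higher in rd10 GSK retinas than in rd10 saline retinas (1.06 ± 0.13, adjusted p = 0.000199). It was still lower in rd10 GSK than in WT GSK (-0.47 ± 0.13, adjusted p = 0.0227).

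The 3 regulators of rods Nrl, Nr2e3 and Esrrb had the largest changes of the members in rd10 saline against WT saline. In rd10 GSK against rd10 saline Esrrb and Nrl had the largest, followed by Samd7. Nrl stood at 588, 1014 and 1405 CPM in rd10 GSK, 211, 214 and 261 CPM in rd10 saline, 1764, 1777 and 1719 CPM in WT GSK and 1781 and 1787 CPM in WT saline. As a share of the WT saline mean, the rd10 GSK replicates held 33.0%, 56.8% and 78.8%, and the rd10 saline replicates 11.8% to 14.6%. The groups did not overlap, but the rd10 GSK libraries differed among themselves by more than the whole rd10 saline range. The log2 change was -2.96 ± 0.29 in rd10 saline against WT saline (edgeR adjusted p = 9.85e-05) and 2.13 ± 0.27 in rd10 GSK against rd10 saline (adjusted p = 0.000557).

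Nr2e3 stood at 269, 416 and 692 CPM in rd10 GSK, 156, 165 and 213 CPM in rd10 saline, 813, 878 and 703 CPM in WT GSK and 684 and 715 CPM in WT saline. Replicate 3 of rd10 GSK reached 98.9% of the WT saline mean and replicate 1 reached 38.5%, the widest spread in percentage points among the 3 rod regulators. Nr2e3 was lower in rd10 saline than in WT saline (-1.98 ± 0.33, edgeR adjusted p = 0.00208) and higher in rd10 GSK retinas than in rd10 saline retinas (1.37 ± 0.31, adjusted p = 0.0104), a call lost where only the compared groups were fitted (adjusted p = 0.0526). Its exons share 61 bases with the long noncoding RNA gene Gm15507.

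Esrrb, an orphan nuclear receptor that supports rod survival, stood at 284, 428 and 556 CPM in rd10 GSK, 96.1, 77.1 and 106 CPM in rd10 saline, 648, 650 and 663 CPM in WT GSK and 627 and 644 CPM in WT saline. It ranked the libraries as Nrl did within rd10 GSK, with replicate 1 at 44.7% and replicate 3 at 87.4% of the WT saline mean. Esrrb was lower in rd10 saline than in WT saline (-2.77 ± 0.24, edgeR adjusted p = 3.58e-05) and higher in rd10 GSK retinas than in rd10 saline retinas (2.18 ± 0.22, adjusted p = 0.000153). The level in the 3 rd10 GSK libraries was below that of every WT library.

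Samd7, a sterile alpha motif protein that brings Polycomb silencing to non-rod genes in rods, was the only member above every WT library in all 3 rd10 GSK libraries. It stood at 191, 320 and 363 CPM in rd10 GSK, 95.5, 84.5 and 112 CPM in rd10 saline, 162, 179 and 141 CPM in WT GSK and 158 and 155 CPM in WT saline. The rd10 GSK replicates were at 122%, 205% and 232% of the WT saline mean. Samd7 was higher in rd10 GSK retinas than in rd10 saline retinas (1.58 ± 0.22, edgeR adjusted p = 0.00103) and than in WT GSK (0.86 ± 0.22, adjusted p = 0.0221). Below WT saline, the rd10 saline change of -0.68 ± 0.24 had an edgeR adjusted p of 0.0518 and was not called.

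The cone receptors had small log2 changes, and only those of Thrb were called. Thrb stood at 81.9, 88.5 and 104 CPM in rd10 GSK, 67.2, 59.6 and 76.2 CPM in rd10 saline, 115, 115 and 108 CPM in WT GSK and 108 and 109 CPM in WT saline. The 3 rd10 GSK libraries lay above all rd10 saline and below all WT libraries, and the counts cover all Thrb isoforms together. Thrb was lower in rd10 saline than in WT saline (-0.68 ± 0.10, edgeR adjusted p = 0.000423), higher in rd10 GSK retinas than in rd10 saline retinas (0.43 ± 0.10, adjusted p = 0.00504) and, in rd10 GSK against WT GSK, lower (-0.30 ± 0.09, adjusted p = 0.0355).

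Rxrg stood at 9.36, 10.3 and 10.4 CPM in rd10 GSK, 11.2, 10.9 and 10.1 CPM in rd10 saline, 9.78, 11.2 and 10.9 CPM in WT GSK and 11.5 and 11.1 CPM in WT saline. Its libraries overlapped between rd10 saline and WT saline and between the rd10 groups. Neither contrast was called (-0.07 ± 0.10, edgeR adjusted p = 0.612, and -0.10 ± 0.09, adjusted p = 0.435), which does not show that Rxrg was unchanged at a level near 10.7 CPM.

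**Figure D2:**
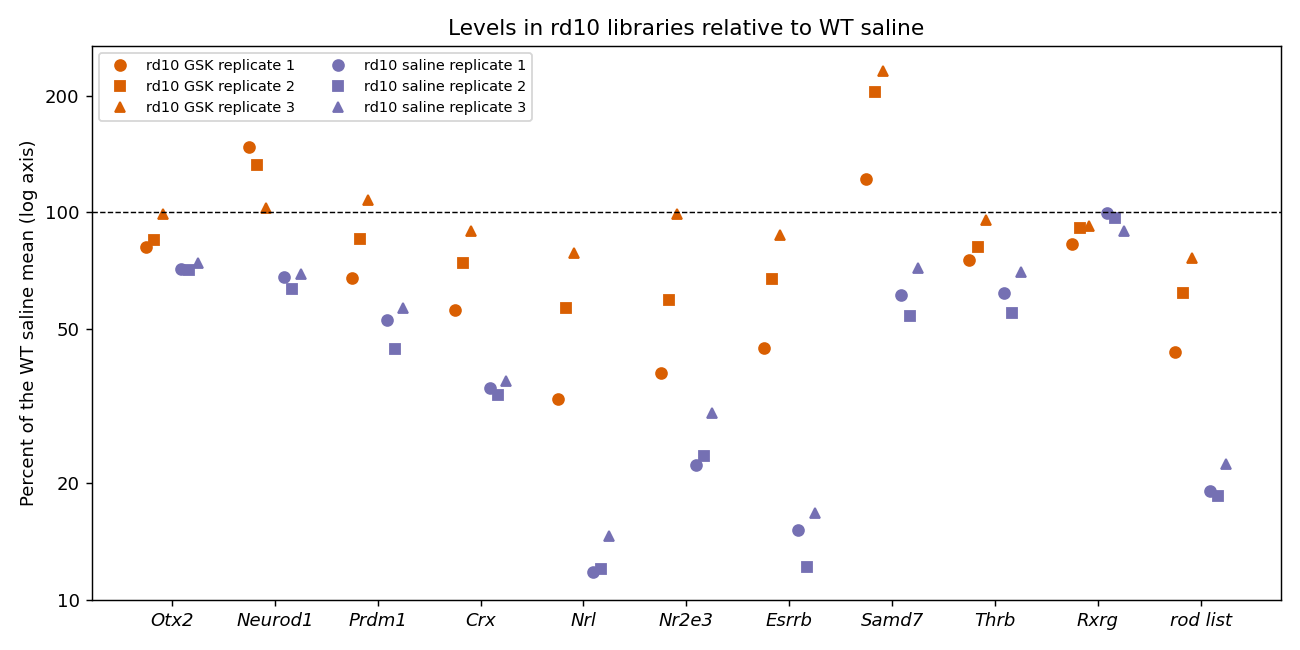
Level of each member and of the 30 rod effector genes as a percentage of the WT saline mean, on a log axis, in the 3 rd10 GSK and the 3 rd10 saline libraries. Nrl spans 33.0% to 78.8% in rd10 GSK and 11.8% to 14.6% in rd10 saline, while Samd7 and Neurod1 exceed 100% in every rd10 GSK library.

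Set per kilobase of all annotated exon bases, Crx was the highest member in every group: 314 CPM per kb in rd10 GSK, 151 in rd10 saline and 429 in WT saline. That length was 3160 bases for Crx and 5689 for Nrl, whose 2 exon blocks cover nearly the whole gene. In CPM alone Nrl exceeded Crx in WT saline (1784 against 1355) and WT GSK (1754 against 1373). Crx and Nrl were close in rd10 GSK (993 and 1002). The place of Nrl therefore depends on the length used. By this measure the order after Crx differed between groups. In rd10 saline Neurod1 came next at 87.2 ± 4.17 CPM per kb (SD, n = 3), then Nr2e3 at 52.7 ± 9.13 and Nrl at 40.2 ± 4.96, and the Nrl and Otx2 (38.0 ± 0.86) levels did not differ beyond their spread. In WT saline Nrl came next at 314 CPM per kb, then Nr2e3 at 208, Neurod1 at 130 and Esrrb at 105. In rd10 GSK the Nrl (176 ± 71.8), Neurod1 (166 ± 29.4) and Nr2e3 (136 ± 63.8) levels overlapped, as did Samd7 (72.8) and Esrrb (69.9). Thrb, Rxrg and Prdm1 were at the low end in every group.

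Ratios within a library show how the members shifted against each other. Nrl to Crx was 0.775, 1.01 and 1.16 in rd10 GSK, 0.441, 0.469 and 0.526 in rd10 saline, 1.29, 1.29 and 1.25 in WT GSK and 1.33 and 1.31 in WT saline, so every rd10 GSK library lay between the others. Samd7 to Nrl was 0.324, 0.316 and 0.258 in rd10 GSK, 0.454, 0.395 and 0.430 in rd10 saline, and at most 0.101 in the 5 WT libraries. This ratio separated all 6 rd10 libraries from all WT libraries whatever the treatment. So did Nrl to Crx, Neurod1 to Nrl, Neurod1 to Crx and Otx2 to Crx. Nr2e3 to Nrl, Esrrb to Nrl and Thrb to Rxrg did not. The share of other gene ratios that separate was not counted. Of the 8 ratios computed, Esrrb to Nrl varied least, at 0.396 to 0.484 in rd10 GSK, 0.361 to 0.456 in rd10 saline, 0.366 to 0.386 in WT GSK and 0.352 to 0.361 in WT saline.

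**Figure D3:**
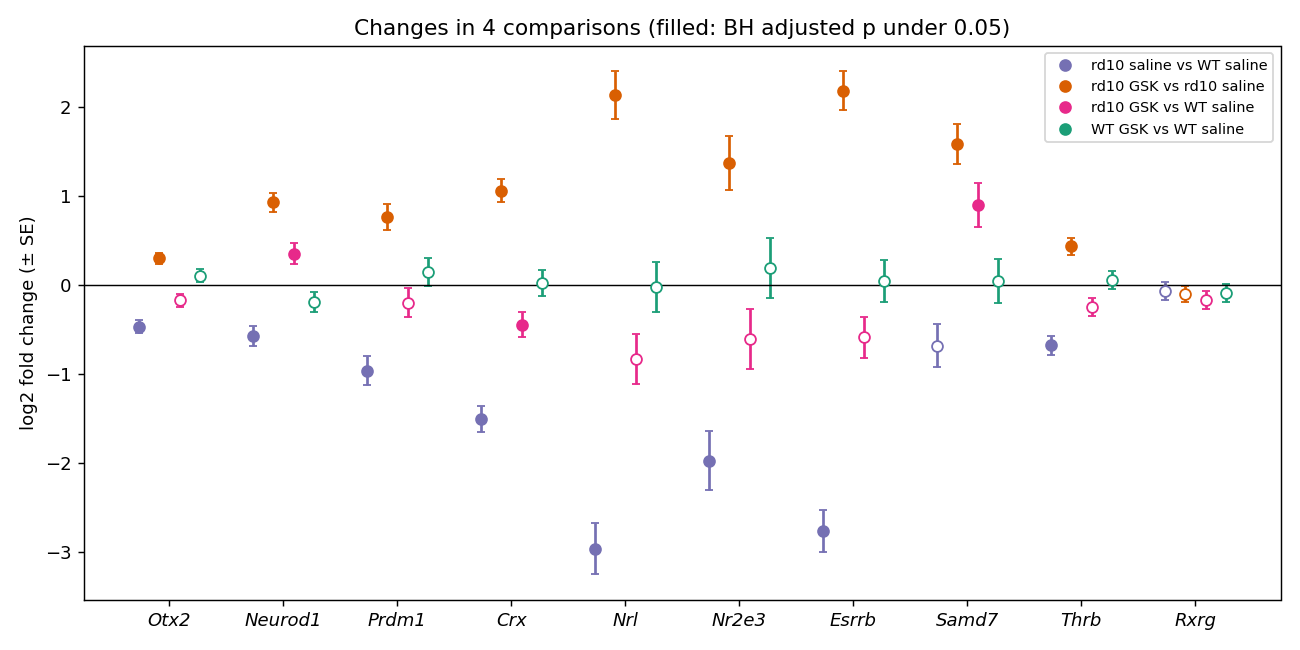
Fitted log2 fold change of each member with its SE in 4 comparisons, where filled points passed an adjusted p of 0.05 and a positive value is higher in the group named first. Nrl and Esrrb fall furthest in rd10 saline (-2.96 and -2.77), and the WT GSK points lie near 0 for every member.

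Whether the inhibitor's effect differed between genotypes was tested as the rd10 difference (GSK minus saline) less the wild-type difference. The difference was called for 5 members, all positive, against 7.49% of tested genes called positive, 4.98% negative and 12.5% in either direction: Neurod1 (1.12 ± 0.16, edgeR adjusted p = 0.00125), Crx (1.04 ± 0.19, adjusted p = 0.00652), Nrl (2.16 ± 0.38, adjusted p = 0.00898), Esrrb (2.14 ± 0.31, adjusted p = 0.00357) and Samd7 (1.54 ± 0.33, adjusted p = 0.0186). Nr2e3 (1.18 ± 0.45, adjusted p = 0.134), Prdm1, Thrb, Otx2 and Rxrg did not pass. Without the 2 lens-bearing libraries the call was lost for Crx, Nrl and Samd7. That fit had 1 WT saline animal, with the spread taken from the other groups. Over 18 alternatives the Samd7 call held under 15, those of Crx and Nrl under 17 and those of Neurod1 and Esrrb under 18. The log2 differences ran from 0.87 to 1.27 for Crx, 1.83 to 2.43 for Nrl and 1.35 to 1.77 for Samd7. Without rd10 GSK replicate 1 the number of called members was 8.

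Set against WT GSK, rd10 GSK retinas had 6 called members, with Neurod1 and Samd7 higher (15.4% of tested genes) and Otx2 (-0.28 ± 0.07, edgeR adjusted p = 0.0122), Crx, Nrl (-0.81 ± 0.26, adjusted p = 0.0493) and Thrb lower (10.9%, and 26.2% in either direction). Against WT saline 3 were called (24.4% of tested genes, 14.1% higher and 10.3% lower): Neurod1 (0.35 ± 0.12, edgeR adjusted p = 0.0492) and Samd7 (0.90 ± 0.25, adjusted p = 0.0326) higher and Crx (-0.45 ± 0.14, adjusted p = 0.0428) lower. Neurod1 above WT GSK was called under all 19 alternatives, with log2 changes of 0.42 to 0.72. Samd7 above WT GSK was called under 13 of 19 (0.67 to 1.08) and among the lower members Otx2 was called under 17 of 19, Crx under 13, Thrb under 9 and Nrl under 5. The count against WT GSK was 1 without the lens-bearing libraries, 2 without rd10 GSK replicate 2, WT GSK replicate 1 or WT GSK replicate 3, and 3 without WT GSK replicate 2. The 3 calls against WT saline were all lost without either WT saline replicate, without rd10 GSK replicate 2 and without the lens-bearing libraries, 1 was left without any 1 of the rd10 saline or WT GSK libraries, and there were 8 calls without rd10 GSK replicate 3. Leaving out either WT saline replicate, or the lens-bearing libraries, left 1 WT saline animal that was assumed to vary like the other groups. Over 19 alternatives the log2 change against WT saline ran from 0.23 to 0.58 for Neurod1, from 0.71 to 1.13 for Samd7 and from -0.62 to -0.24 for Crx.

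How far the members went with rod effector genes was asked by scaling each library so that 30 genes of rod phototransduction and outer segments had equal mean log2 level. These genes, none of them a member, fell in rd10 saline against WT saline in 30 of 30 cases (median -2.39) and rose in rd10 GSK against rd10 saline in 30 of 30 (median 1.59). Relative to them, Nrl (-0.65 ± 0.21, edgeR adjusted p = 0.00256) and Esrrb (-0.45 ± 0.21, adjusted p = 0.0359) were lower in rd10 saline than in WT saline, whereas 0.234% of all tested genes were called lower, 97.9% higher and 98.1% in either direction. The Esrrb call held under 6 of 16 alternatives. Nr2e3 was not called (0.34 ± 0.22, adjusted p = 0.129), and the other 7 members were higher, from Crx at 0.82 ± 0.21 to Rxrg at 2.26 ± 0.29, beside a median of 2.35 over all tested genes.

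With the inhibitor the same scaling placed Nrl (0.50 ± 0.19, edgeR adjusted p = 0.0107) and Esrrb (0.57 ± 0.19, adjusted p = 0.00426) above rod effector genes in rd10 GSK against rd10 saline, where 0.287% of tested genes were called higher, 93.1% lower and 93.4% in either direction. Samd7 (-0.03 ± 0.20, adjusted p = 0.896) and Nr2e3 (-0.27 ± 0.19, adjusted p = 0.173) were not called, which does not show that they followed the rod genes. Neurod1 (-0.56 ± 0.21, adjusted p = 0.0131), Crx (-0.53 ± 0.19, adjusted p = 0.00568), Prdm1, Thrb, Otx2 and Rxrg were lower relative to the rod genes. Over all tested genes the median was -1.52.

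**Figure D4:**
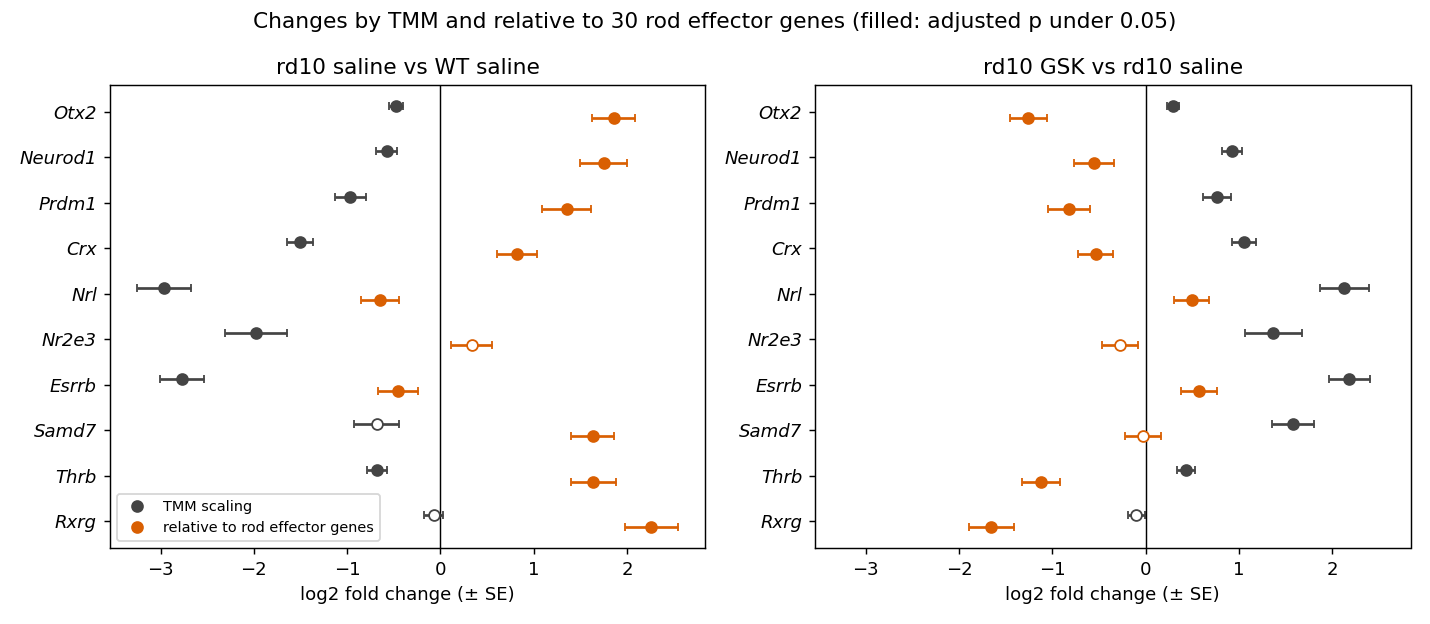
Log2 fold change of the members with SE by TMM scaling (dark) and with 30 rod effector genes held equal (orange), for rd10 saline against WT saline on the left and rd10 GSK against rd10 saline on the right. Filled points passed an adjusted p of 0.05. Relative to rod genes Nrl and Esrrb sit below 0 in rd10 saline and above 0 with the inhibitor, while Rxrg is at 2.26 and -1.65.

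The rod genes ordered the 3 rd10 GSK animals as Nrl did. Their geometric mean stood at 43.5%, 62.1% and 76.1% of the WT saline level in rd10 GSK replicates 1, 2 and 3, and at 18.6% to 22.4% in rd10 saline. Microglial genes summed to 162 to 355 CPM in rd10 GSK, 587 to 692 CPM in rd10 saline, 97.1 to 103 CPM in WT GSK and 94.8 to 96.9 CPM in WT saline, and their part in the members' values was not tested.

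**Figure D5:**
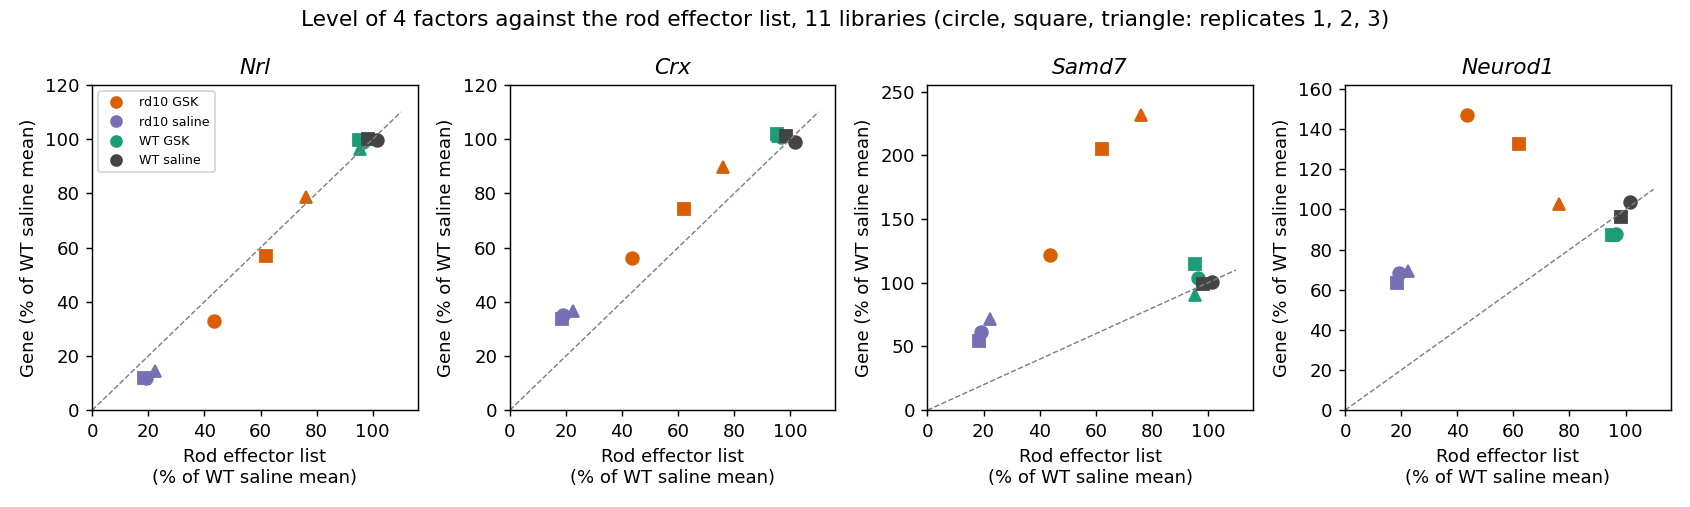
Levels of Nrl, Crx, Samd7 and Neurod1 in each of the 11 libraries against the geometric mean level of the 30 rod effector genes, both as percentages of the WT saline mean on linear axes, with groups in colour, replicates 1, 2 and 3 as circles, squares and triangles, and a dashed line where both percentages are equal. In rd10 GSK, Samd7 lies above 100% in all 3 libraries while the rod genes are at 43.5% to 76.1%.

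The counts in this paragraph stand beside 21.5% of all tested genes called higher and 19% lower in rd10 saline against WT saline, and 17.6% higher and 15.2% lower in rd10 GSK against rd10 saline. Of 24 tested partner genes of the members, 7 were higher and 10 lower in rd10 saline than in WT saline, while in rd10 GSK against rd10 saline 8 were higher and 7 lower. Mef2c, a MADS-box factor, was at -2.14 ± 0.23 in rd10 saline against WT saline and 1.39 ± 0.22 in rd10 GSK against rd10 saline. Crxos, which lies on the strand opposite Crx, was at -1.53 ± 0.20 and 1.27 ± 0.19, and Pias3, a SUMO ligase that modifies Nr2e3, at -1.24 ± 0.11 and 0.62 ± 0.10. Of 18 genes of thyroid hormone and retinoid signalling, to which Thrb and Rxrg belong by function, 8 were higher and 3 lower in rd10 saline than in WT saline, while in rd10 GSK against rd10 saline 4 were higher and 4 lower. Of 17 tested cone effector genes, 1 was higher and 4 lower in rd10 saline than in WT saline, while in rd10 GSK against rd10 saline 3 were higher and 5 lower. The 3 higher were Guca1a, Pex5l and Grk1, which were also among the 4 lower in rd10 saline. The part of rod RNA in the levels of these 3 genes was not tested, so their rise cannot be assigned to cones. In rd10 saline against WT saline the share of cone effector genes called was below the 40.5% of all tested genes called in either direction.

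The genes with the profiles most like each member over the 11 libraries were found by the root mean square difference of log2 CPM, centred on each gene's mean, among 12021 genes. For Nrl these were Pdc (0.06), which encodes phosducin, Reep6 and Slc24a1, and for Esrrb Slc24a1, Pdc and Nt5e. The closest gene to Crx was Ano2 (0.05), to Nr2e3 Pitpnm3 (0.15), to Otx2 Ncapd3 (0.04), to Prdm1 Lmnb1 (0.07) and to Thrb Sgip1 (0.05). Neurod1 lay closest to Ptp4a3 (0.10) and Rxrg to Pdp1 (0.05). Samd7 had the most distant nearest profile, Lurap1l at 0.24. Among members the closest pairs were Otx2 with Thrb (0.10) and Nrl with Esrrb (0.14).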

How the data were processed

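The authors deposited 1 table of raw counts by gene and library, with no normalization. Per the submitters' processing notes reads were handled with bcl2fastq, HISAT2 2.1.0 and HTSeq, with edgeR named too and builds NCBIM37 and mm9. For the counting, strand setting and annotation were not given in the sources used here. Symbols and exon lengths came from GENCODE M21 by Ensembl identifier: 32919 of 37991 identifiers had a symbol, and the other 5072 held 0.627% of counts.

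The filter was filterByExpr at a minimum count of 10 and a minimum total of 15. Counts were scaled by TMM and fitted in edgeR 4.0.16 under R 4.3.3 with 1 coefficient per group over all 11 libraries and robust quasi-likelihood dispersions. The common biological coefficient of variation was 0.129. All 6 comparisons were tested on all genes, and 2 repeated with rod effector genes held equal. Per-sample values divide counts by TMM-scaled library size. Log2 profiles added 0.1 CPM.

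Alternatives were DESeq2 1.42.0, RLE and inner retina scaling, no filter, only the compared groups, a replicate block, an Xist term, leaving out the libraries with lens transcripts above 500 CPM, and each replicate in turn. Genes to be named were the members, Pde6b and Kdm1a, up to 3 called genes of largest change with a mean of at least 5 CPM from each list described, and the nearest profiles. The members and gene lists were chosen with earlier results of these data known. Animals are the unit of replication; sex and litter are not given in the labels. No library pair within a group agreed within sampling noise.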

Additional observations from a re-analysis of the deposited data

Results flagged for a closer look

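The effect of the inhibitor differed between the genotypes for 5 members, as a test of the difference itself in edgeR (rd10 GSK minus rd10 saline, less WT GSK minus WT saline). The log2 difference was 1.12 for Neurod1, 1.04 for Crx, 2.16 for Nrl, 2.14 for Esrrb and 1.54 for Samd7. Of 18 alternatives, the call held under 18 for Neurod1 and Esrrb, 17 for Crx and Nrl and 15 for Samd7. The trait was not particular to the members. Of the 30 rod effector genes, 28 were called positive and 0 negative in the same test. Their median log2 difference was 1.64, beside 1.08 over the members. Of all tested genes, 7.49% were called positive and 4.98% negative. No cause was tested.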

How the results depend on the processing

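Members lower in rd10 saline than in WT saline numbered 8, and 8 to 9 under every alternative run; members higher in rd10 GSK than in rd10 saline numbered 9 and were 7 where only the compared groups were fitted. Leaving out replicates gave 0 for WT GSK against WT saline, 4 to 8 for the interaction, 2 to 8 for rd10 GSK against WT GSK and 0 to 8 for rd10 GSK against WT saline. Fitting only the compared groups gave 1 call in WT GSK against WT saline (Neurod1), 3 against WT GSK and 0 against WT saline for rd10 GSK. Inner retina scaling gave 9 for the interaction and 3 for rd10 GSK against WT GSK. Without the lens-bearing libraries these were 2 and 1, and rd10 GSK against WT saline 0, as with no filter and with an Xist term. Whether replicate numbers pair the animals could not be told. Same-number correlations ran from -0.309 to 0.564, and the highest was between the 2 lens-bearing libraries. The replicate block gave 5 calls for rd10 GSK against WT saline. The cause was not tested.

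Direction changed in uncalled results. In rd10 GSK against rd10 saline, Rxrg was 0.19 under inner retina scaling. In WT GSK against WT saline, Crx was -0.041, Esrrb -0.063 and Samd7 -0.021 with the replicate block, Nrl 0.027 under inner retina scaling, and Samd7 -0.045 to 0.13 without single replicates. The Rxrg interaction was 0.0091 without lens-bearing libraries, 0.23 under inner retina scaling and -0.065 to 0.043 without single replicates. Against WT GSK, Rxrg was 0.083, and against WT saline Otx2 was 0.039, Prdm1 0.0082 and Rxrg 0.047, under inner retina scaling. Relative to rod genes, Samd7 in rd10 GSK against rd10 saline was 0.045 with phototransduction genes only and -0.086 to 0.030 without single replicates. WT saline held 2 animals, which limits every comparison with it.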

Other observations

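Genes of retinal progenitors and neurogenesis were higher in rd10 saline than in WT saline for 8 of 16 tested and lower for 1 (21.5% and 19% of all tested genes), and 5 of 16 were higher and 0 lower in rd10 GSK than in WT saline (14.1% and 10.3%). Müller glia markers moved in the same comparisons, with 9 of 11 higher and 0 lower in rd10 saline than in WT saline (median log2 change 0.81) and 4 of 11 higher and 1 lower in rd10 GSK than in WT saline. Sox9 is in both lists, and the part of Müller glia in the counts was not tested. Notch1, a receptor of lateral inhibition, was at 1.60 ± 0.18 in rd10 GSK against WT saline and at 0.46 ± 0.15 in rd10 GSK against rd10 saline. Sox9, which is also expressed in Müller glia, was at 1.13 ± 0.08 in rd10 saline against WT saline and -0.26 ± 0.07 in rd10 GSK against rd10 saline.

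Among paralogs of the members, Nr2e1, the progenitor relative of Nr2e3, was at 0.73 ± 0.11 in rd10 saline against WT saline and -0.66 ± 0.10 in rd10 GSK against rd10 saline. Rxra, a broadly expressed relative of Rxrg, was at -0.70 ± 0.07 and 0.33 ± 0.07 in the same comparisons.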
